A study of Mus musculus with 9 samples.

Results

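The regions described here were the stretches of open chromatin nearest to 32 genes that either direct the formation of fat cells or carry out the work of a mature adipocyte. Peaks on chromosomes 1 to 19 that overlapped or touched were merged across the 9 libraries, and a merged region was kept if 2 or 3 of the libraries of at least 1 line had a peak there. A region belonged to a listed gene when that gene had the nearest start site of a protein-coding transcript. This gave 318 of 95142 regions, near 30 of the 32 genes. No region near Prdm16, a regulator of brown fat identity, or Retn, which encodes the secreted protein resistin, was analysed here.

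All cells were C3H/10T1/2 (CCL-226), an established mouse line of mesenchymal progenitors that can be driven towards fat, cartilage or bone, and all were profiled in the undifferentiated state by Omni-ATAC-seq, in which a transposase cuts accessible DNA. B10 and G7 were Atrx knockout clones made with CRISPR-Cas9 and different guides, each grown from a single sorted cell, and the WT line had received the Cas9 vector without a guide. Each line had 3 libraries. The labels do not say whether the replicates of a line were separate cultures, so p-values measure the spread between these libraries only. A difference between a knockout clone and WT also holds whatever else distinguishes that clone from the WT line, and the 2 clones share the WT libraries.

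Adipocyte formation runs through a cascade of transcription factors. CEBPB and CEBPD act early, they and the KLF and EBF factors act on the genes of PPARG and CEBPA, and PPARG with CEBPA then turns on the genes for lipid uptake, lipid synthesis, the lipid droplet and secreted hormones. In a progenitor that has not been induced, the genes of the mature fat cell are mostly silent. ATAC-seq peaks report whether DNA is accessible and say nothing directly of how much RNA a gene makes.

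The lists held 74643 to 86650 peaks per library on these chromosomes. A peak's strength is given below as its rank, the percentile of its −log10 q among all peaks of its own library, in which 100 is the strongest. For marker genes of cell types only the kept regions were searched. Start sites of the mesenchymal genes Pdgfra, Pdgfrb, Eng, Vim and Col1a1 held a peak in all 9 libraries, while those of Thy1, Ly6a and Nt5e held no kept region. No kept region lay at the start sites of the blood genes Ptprc and Cd3e, the epithelial genes Epcam, Krt5 and Cdh1 or the glial gene Gfap. Kept regions at the endothelial genes Pecam1 and Cdh5 had peaks in 5 and 2 libraries, and that at the neuronal gene Rbfox3 in 9. The start site of Atrx held a peak in all 9 libraries. Accessibility there says nothing of protein, so the knockout was not tested by it.

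The sequences under the regions that the results turn on are shown first. All are on the plus strand of the mouse genome (NCBI RefSeq sequence of GRCm38, the assembly of mm10). Each line except the first gives up to 100 bases either side of the summit of the strongest peak, without bases in an annotated exon. At the Pparg start site the bases around the summit, chr6:115361085, all lie in annotated exons. Its line therefore gives the nearest stretch of the region outside them. Capitals mark matches to the motifs described further below, which are those of the C/EBP, EBF and AP-1 factors and of PPARG with its partner RXR. The regions at Pparg, Ppargc1a, Scd1 and Ebf1 ranked higher in both clones than in WT, the region at Ebf2 ranked lower in both, and those at Zfp423 and Cd36 differed in B10.
Pparg start site, bases before the annotated exons, chr6:115360782-115360878: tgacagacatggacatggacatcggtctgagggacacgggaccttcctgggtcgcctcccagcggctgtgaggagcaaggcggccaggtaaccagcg
Pparg 20.5 kb upstream, chr6:115340388-115340588: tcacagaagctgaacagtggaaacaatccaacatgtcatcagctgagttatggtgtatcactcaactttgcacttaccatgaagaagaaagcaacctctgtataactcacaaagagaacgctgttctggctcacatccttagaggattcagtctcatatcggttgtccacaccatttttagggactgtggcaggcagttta
Ppargc1a 6.14 kb upstream, chr5:51573921-51574121: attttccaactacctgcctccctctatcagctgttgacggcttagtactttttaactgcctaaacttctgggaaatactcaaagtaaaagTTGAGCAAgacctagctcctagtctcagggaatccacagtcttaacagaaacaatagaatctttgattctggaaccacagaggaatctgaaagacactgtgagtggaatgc
Scd1 31.0 kb downstream, chr19:44376682-44376882: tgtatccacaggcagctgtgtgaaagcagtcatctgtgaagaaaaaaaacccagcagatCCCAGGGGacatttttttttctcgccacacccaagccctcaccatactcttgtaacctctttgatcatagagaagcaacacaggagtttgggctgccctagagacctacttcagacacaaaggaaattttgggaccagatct
Ebf1 intron, chr11:44925004-44925204: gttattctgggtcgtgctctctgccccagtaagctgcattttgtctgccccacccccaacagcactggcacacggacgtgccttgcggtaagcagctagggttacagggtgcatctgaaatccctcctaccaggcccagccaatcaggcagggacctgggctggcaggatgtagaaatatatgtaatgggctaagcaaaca
Ebf2 76.8 kb upstream, chr14:67156491-67156691: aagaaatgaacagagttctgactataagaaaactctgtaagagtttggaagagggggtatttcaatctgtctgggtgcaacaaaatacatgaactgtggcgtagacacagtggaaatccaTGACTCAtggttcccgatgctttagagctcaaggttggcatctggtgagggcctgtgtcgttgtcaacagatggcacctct
Zfp423 intron, chr8:87938950-87939150: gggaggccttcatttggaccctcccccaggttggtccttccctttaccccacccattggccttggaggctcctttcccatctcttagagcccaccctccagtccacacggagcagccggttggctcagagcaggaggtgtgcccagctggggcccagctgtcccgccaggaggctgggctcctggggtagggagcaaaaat
Cd36 start site, bases outside the annotated exons, chr5:17849793-17849915: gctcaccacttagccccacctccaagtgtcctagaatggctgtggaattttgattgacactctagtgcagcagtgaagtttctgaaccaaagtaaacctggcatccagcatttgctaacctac
The C/EBP match lay in the Ppargc1a sequence, the EBF match in the Scd1 sequence and the AP-1 match in the Ebf2 sequence. The other sequences held no match, and neither did the bases around the summit at the Pparg start site.

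Near the listed genes the clones gained and lost open regions in about equal number. Pparg, the master regulator, had the largest rise of the listed regions in the rank comparison, at its most upstream start site and in both clones. At its start site further into the gene, neither clone passed the test against WT. Regions near Scd1, Ppargc1a, Ebf1 and Cidea also rose in both clones, and a distal region and the start site of Ebf2 fell. In the rank comparison the largest difference between the clones was at Zfp423. There B10 also lost 11 of 24 regions, against 7.59% of all regions.

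A region was called gained where at least 2 of the 3 libraries of a clone and none of the WT libraries held a peak, and lost where the reverse was true. In B10, 29 of 318 regions were gained and 32 were lost, against 10.4% and 7.59% of all 95142 regions. In G7, 20 were gained and 17 were lost, against 5.61% and 7.43% of all regions. Both clones gained the same 10 regions and lost the same 9, against 2.93% and 4.37% of all regions. Of the listed regions these were 3.14% gained and 2.83% lost. Leaving out 1 library gave 4 to 23 gained in both, fewest without B10 replicate 2 and most without WT replicate 1. It gave 5 to 14 lost in both, fewest without WT replicate 2 and most without G7 replicate 2. The rule still asked for at least 2 libraries. Leaving out a clone library could therefore only lower gains or raise losses, and a WT library the reverse. The ranges thus reflect the rule as well as the libraries. Requiring peaks to cover at least 0.5 of a region also gave 14 lost.

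Ranks were compared for the 173 listed regions, of 57253 in all, that held a peak in at least 2 of 3 libraries of every line, by limma with Benjamini-Hochberg adjustment over all of them and a threshold of 0.05. In B10, 17 regions ranked higher than in WT and 11 lower, where 9.88% and 5.04% of all regions did. In G7, 11 ranked higher and 6 lower, where 4.65% and 4.28% of all regions did. In both clones 10 ranked higher and 2 lower, where 3.25% and 1.57% of all regions did. The listed regions held 5 that ranked higher in B10 than in G7 and 6 that ranked lower, where 3.65% and 2.03% of all regions did. With the replicate number as a block, 37 regions ranked higher in B10, 29 in G7 and 24 in both, and 21, 21 and 9 ranked lower. When peaks were ranked by fold enrichment in place of −log10 q, 9, 3 and 3 ranked higher and 4, 1 and 0 lower. The shares of all regions under these settings are not given, so the counts do not show whether the listed regions stood apart.

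The median difference over the 173 regions was 0.37 rank points in B10 and 0.40 in G7, beside 0.74 and −0.09 over all regions tested. After centring by chromosome it was −0.68 and 2.06, beside −0.90 and 0.32. By fold enrichment it was 1.03 and 1.80, and with lists trimmed to the same length −1.41 and 1.3, so the sign in B10 depended on the scale. Whole chromosomes shifted between the lines by more than this. Regions that were not near a listed gene had a median difference of 5.89 in B10 on chromosome 6, which holds Pparg, Klf15 and Lep, and of 3.86 in B10 and 4.17 in G7 on chromosome 8, which holds Zfp423 and Lpl. After each library was centred on the median rank of the same chromosome, 13 listed regions ranked higher in B10, 10 in G7 and 8 in both, where 6.21%, 4.28% and 2.51% of all regions did. The regions lower after centring numbered 12 in B10, 4 in G7 and 1 in both, where 6.19%, 2.43% and 1.2% of all regions did. Over all regions in B10, centring turned 5658 higher and 2885 lower calls into 3554 and 3546. The part of chromosome copy number in these shifts was not tested.

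**Figure D1:**
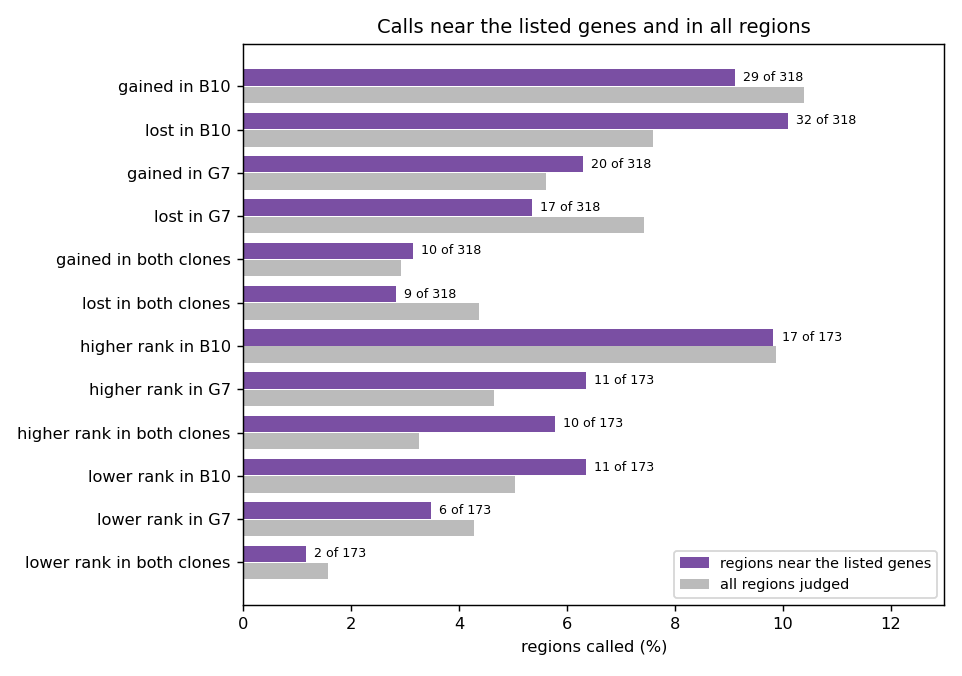
Share of regions called by each rule (x axis, percent), for the regions near the listed genes (purple, with the count beside the bar) and for all regions judged by the same rule (grey). The listed genes exceed all regions by similar margins in rank rises shared by both clones, 5.78% against 3.25%, and in regions lost in B10, 10.1% against 7.59%. They fall short most in regions lost in G7, 5.35% against 7.43%, and less in regions lost in both, 9 of 318 against 4.37%.

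A region lay within 500 bp of a start site in 21 of the 32 genes, or 65.6%, beside 59.0% of the 20698 protein-coding genes. Both master regulators, all 8 of the early and other regulators, both lipid synthesis genes and both lipolysis genes had such a region. None of the 5 genes for secreted factors and the membrane marker had one, and no library held a peak at the start sites of Fabp4, Lpl, Adipoq, Cidec, Cidea, Lep, Prdm16, Ucp1, Retn, Cfd or Adig. For Prdm16 this reaches beyond the start site, as no library listed a peak in the stretch around the gene, and whether that stretch was filtered is not given in the sources used here. A gene's main start region is its strongest start-site region, which need not be at its most upstream start. For the 18 genes whose main start region was open in all 9 libraries, ranks ran from 41.6 at Klf15 to 98.1 at Klf5, both in WT libraries. Pparg, Cd36 and Dio2 were the genes whose main start region was open in some libraries only.

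**Figure D2:**
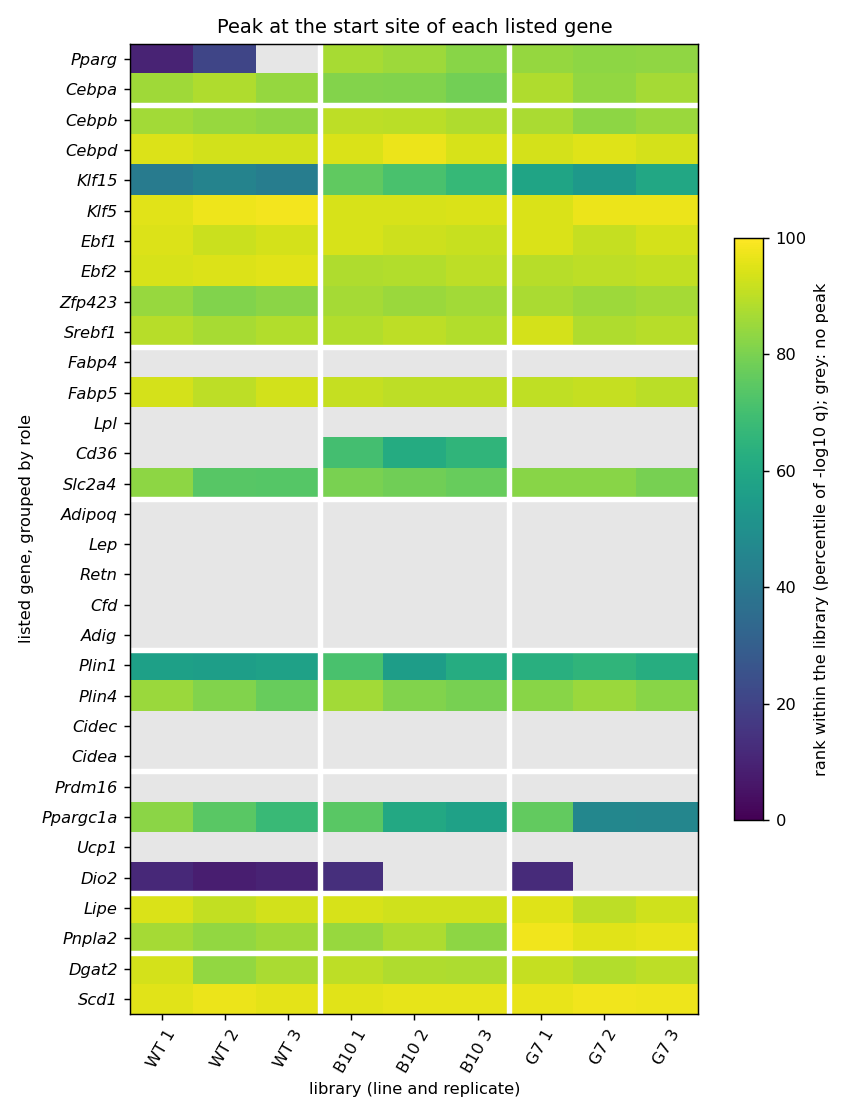
Rank of the peak at the strongest start-site region of each of the 32 listed genes (rows, grouped by role) in each of the 9 libraries (columns), on a colour scale from 0 to 100, with grey where the library held no peak. Pparg is low or missing in WT and between 82.4 and 87.1 in the clones, and the Cd36 region, inside the gene, is open in B10 alone.

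PPARG is the nuclear receptor without which fat cells do not form. Its most upstream start region (chr6:115360782-115361892) ranked 9.9 and 20.8 in WT replicates 1 and 2 and held no peak in replicate 3. It ranked 87.1, 85.2 and 82.4 in B10 and 84.3, 83.1 and 83.4 in G7. All 6 knockout libraries sat far above WT, with no overlap. The difference was 69.56 ± 4.25 points in B10 (SE, limma adjusted p = 0.000111) and 68.28 ± 4.25 in G7 (adjusted p = 0.000192), from a fit that left out the missing library. Both calls held under every alternative that gave a value. With WT peaks in replicates 1 and 2 only, none was had without either of them or without replicate 1 of every line. The same was true for regions open in all 9 libraries.

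Of the 16 Pparg regions, 12 entered the fit, 3 ranked higher in both clones, where 3.25% of all regions did, and none ranked lower. With the replicate block, 5 ranked higher in both clones, the added ones being intronic regions of chr6:115389858-115390842 (10.49 and 13.04, adjusted p = 0.0157 and 0.00723) and chr6:115420858-115421317 (25.21 and 23.44, adjusted p = 0.00243 and 0.00542). A region 38 kb upstream then fell in G7, by −19.48 (adjusted p = 0.0169; 0.244 without the block). The region 20.5 kb upstream (chr6:115340038-115340847) ranked 58.6, 30.3 and 33.6 in WT, 84.5, 76.5 and 73.4 in B10 and 76.3, 65.9 and 66.1 in G7. WT did not overlap either clone, and replicate 1 was the highest of each line. The difference was 37.25 ± 7.21 in B10 (adjusted p = 0.00859) and 28.57 ± 7.21 in G7 (adjusted p = 0.0377). The G7 call was lost, with adjusted p of 0.0572 to 0.119, without any of the 3 G7 libraries, B10 replicate 2 or 3 or WT replicate 2 or 3. The region 43.8 kb upstream (chr6:115316784-115317498) rose by 12.50 ± 3.44 in B10 (adjusted p = 0.037) and by 12.61 ± 3.44 in G7 (adjusted p = 0.0498). Both of these calls were lost after chromosome centring, where the differences were 4.63 (adjusted p = 0.464) and 10.47 (adjusted p = 0.123). The G7 call was also lost without any library other than WT replicate 1, with adjusted p of 0.0537 to 0.149, and the B10 call without B10 replicate 2 or 3, G7 replicate 3 or WT replicate 2 or 3, with adjusted p of 0.0625 to 0.128.

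The rest of the Pparg locus was uneven. An intronic region (chr6:115367082-115367701) held a peak in WT replicate 1 only, at rank 9.9, and in all 6 knockout libraries, at 75, 63 and 55.1 in B10 and 56.8, 33.7 and 15.6 in G7, which met neither the rule of presence nor that of the fit. It was singled out after its values were seen. At the start site of the shorter transcripts further into the gene (chr6:115421685-115422155), ranks were 30.3, 46.6 and 49.5 in WT, 48.1, 67.8 and 60.8 in B10 and 28.9, 46.1 and 52.3 in G7. There the difference was 16.74 ± 8.01 in B10 (adjusted p = 0.196; 0.0147 with the replicate block) and 0.28 ± 8.01 in G7 (adjusted p = 0.99). An intronic region of chr6:115469485-115470323 was gained in B10 alone.

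CEBPA sustains the adipocyte programme together with PPARG. Its start region (chr7:35118144-35119480) ranked 85.7, 88.0 and 84.0 in WT, 81.5, 81.1 and 78.7 in B10 and 88.1, 83.6 and 86.4 in G7. B10 lay below the other lines with no overlap. The difference was −5.48 ± 1.65 in B10 (adjusted p = 0.0511; 0.0142 with the replicate block and 0.0317 after centring) and 0.16 ± 1.65 in G7 (adjusted p = 0.971). A region 8.16 kb downstream (chr7:35126893-35128043) ranked 72.5, 60.9 and 57.5 in WT and 33.6, 33.7 and 38.6 in G7, a difference of −28.34 ± 7.24 (adjusted p = 0.0395). In B10 it ranked 58.1, 51.5 and 31.1, a difference of −16.72 (adjusted p = 0.154; 0.0494 with the replicate block). The G7 call was lost without any library other than B10 replicate 1 or 3, with adjusted p of 0.0572 to 0.0947.

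**Figure D3:**
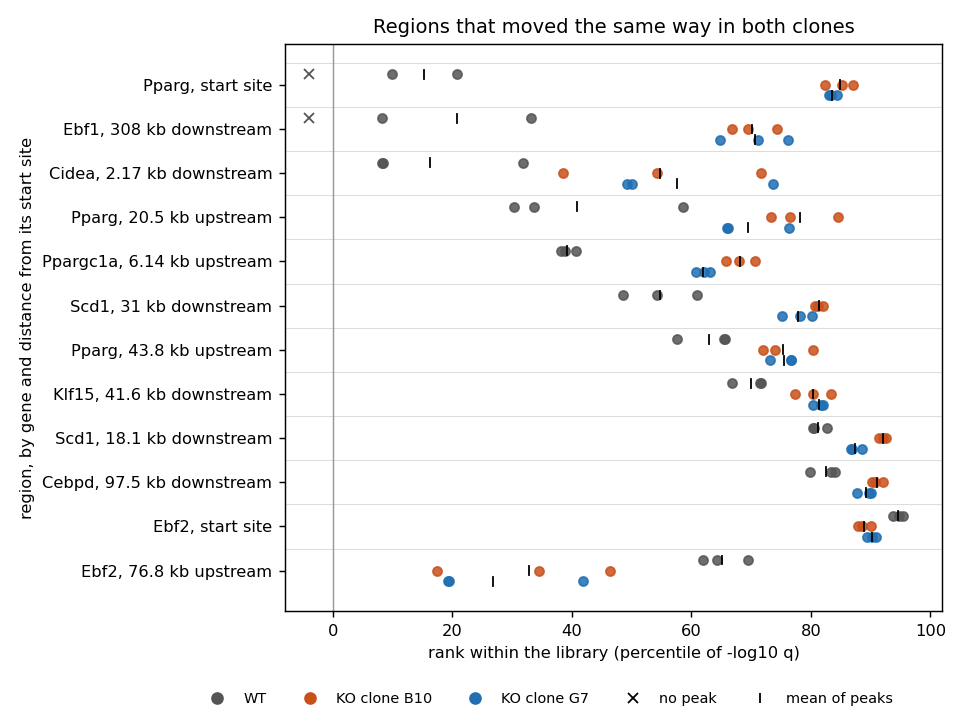
Rank within the library (x axis, percentile of −log10 q) of the 12 regions that ranked higher or lower than WT in both clones (rows), with a point per library, crosses left of 0 for libraries without a peak and a tick at the mean of the peaks. The Pparg start site shows the widest gap, 69.56 points in B10 and 68.28 in G7, and the Ebf2 regions are the only ones where WT is on the right.

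Among the early and other regulators, the main start regions were open in all 9 libraries. Those of Klf15 and Klf5 passed the test in B10 and that of Ebf2 in both clones, and with the replicate block that of Cebpb in B10 and that of Zfp423 in both clones passed as well. CEBPB is induced within hours of an adipogenic stimulus. Its start region (chr2:167688295-167690171) ranked 86.3, 84.5 and 83.5 in WT, 90.1, 89.6 and 88.2 in B10 and 87.2, 83.0 and 84.9 in G7. The difference was 4.55 ± 1.36 in B10 (adjusted p = 0.0501; 0.00687 with the replicate block) and 0.29 ± 1.36 in G7 (adjusted p = 0.928; 0.0481 after centring). CEBPD, which acts beside CEBPB, had a start region (chr16:15886608-15888198) that ranked 94.6, 93.0 and 93.2 in WT, 94.2, 97.0 and 93.9 in B10 and 93.4, 95.2 and 93.4 in G7, with differences of 1.41 (adjusted p = 0.354) and 0.40 (adjusted p = 0.843).

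The regions further from these genes moved more. Of the 22 Cebpb regions in the rank comparison, 2 fell in G7, where 4.28% of all regions did, and none passed the test in B10. The region 24.8 kb downstream (chr2:167713332-167714058) ranked 72.4, 55.6 and 64.0 in WT, 76.3, 74.9 and 68.5 in B10 and 34.6, 26.9 and 46.0 in G7. The fall of G7 below WT was −28.16 ± 6.12 (adjusted p = 0.021), and the call was lost without G7 replicate 2 (adjusted p = 0.0602) or WT replicate 3 (0.0649). The region 51.7 kb downstream (chr2:167740275-167741053) differed by −22.05 ± 4.77 in G7 (adjusted p = 0.0207) and −15.62 ± 4.77 in B10 (adjusted p = 0.0542; 0.0146 with the replicate block). Its G7 call was lost after centring (adjusted p = 0.064) and without WT replicate 2 (adjusted p = 0.0707). Chromosome 2 as a whole had a median difference of −4.03 in G7. Near Cebpd, a region inside an intron of Spidr (chr16:15984040-15985561) ranked higher in both clones, by 8.56 ± 1.31 in B10 (adjusted p = 0.00295) and 6.69 ± 1.31 in G7 (adjusted p = 0.0137). The G7 call was lost without G7 replicate 2 (adjusted p = 0.0505). A region in a coding exon of Spidr (chr16:15966271-15966931) was gained in both clones, with peaks at 40.4 and 37.2 in B10 replicates 1 and 2 and at 16.6 and 14 in the same replicates of G7.

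KLF15 acts late in adipogenesis and also drives Slc2a4 in fat. Its start region (chr6:90465889-90466695) ranked 41.6, 44.8 and 42.2 in WT, 75.7, 71.2 and 67.0 in B10 and 58.5, 53.8 and 59.8 in G7. The lines did not overlap, with G7 between WT and B10. The rise was 28.41 ± 4.20 in B10 (adjusted p = 0.00258; 20.54 after centring, adjusted p = 0.0096) and 14.48 ± 4.20 in G7 (adjusted p = 0.0611; 0.0221 with the replicate block). A region 39.7 kb downstream rose by 19.89 ± 4.22 in B10 (adjusted p = 0.0128; 0.0516 without B10 replicate 2), with a difference of 14.32 in G7 (adjusted p = 0.0642; 0.00294 with the replicate block). The region next to it, 41.6 kb downstream, ranked higher in both clones, by 10.37 and 11.35, but after centring the differences were 2.5 (adjusted p = 0.574) and 9.21 (adjusted p = 0.0538). These calls were also lost without WT replicate 2 (adjusted p = 0.0555 in B10 and 0.055 in G7), B10 replicate 2 or 3 (0.0713 and 0.0538 in B10) or G7 replicate 1 or 3 (0.0507 and 0.0686 in G7).

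KLF5 acts between the C/EBP factors and Pparg. Its start region (chr14:99298249-99300153) was among the strongest of the list, at 95.6, 97.3 and 98.1 in WT, 93.9, 94.0 and 94.2 in B10 and 94.4, 96.9 and 97.1 in G7. It ranked 3.02 points lower in B10 in the fit, a difference of −3.02 ± 0.83 (adjusted p = 0.0369), and that call did not last. After centring the difference was −0.71 (adjusted p = 0.806), and without any B10 library or without WT replicate 2 or 3 the adjusted p was 0.0813 to 0.13. Ranked by fold enrichment, the difference changed sign to 7.37 (adjusted p = 0.0257). Of the 7 Klf5 regions in the rank comparison, 3 more fell in B10, which were picked out after their values were seen, by −18.32 at 25.5 kb, −18.58 at 250 kb and −17.38 at 326 kb downstream (adjusted p of 0.0175, 0.0276 and 0.0117). These 3 Klf5 regions also passed after centring. Over all regions tested, 5.04% ranked lower in B10. A weak region 333 kb downstream was lost in both clones, from ranks of 0.175 and 18.9 in WT replicates 2 and 3.

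Ebf1, an early B-cell factor that also promotes adipogenesis, had the most regions of any listed gene, 46, most of them in its introns. Both clones gained 3 of these 46 regions and lost 1, where 2.93% and 4.37% of all regions were gained and lost. The intronic region 308 kb from the nearest start site (chr11:44924798-44925539) ranked 33.1 and 8.25 in WT replicates 1 and 3, with no peak in replicate 2, against 74.3, 69.5 and 66.8 in B10 and 76.2, 64.7 and 71.2 in G7. The rise was 49.58 ± 7.47 in B10 (adjusted p = 0.00364) and 50.05 ± 7.47 in G7 (adjusted p = 0.00552), again with the missing library left out. It held under every alternative that gave a value, and leaving out WT replicate 1 or 3 gave none. A region next to it (chr11:44926143-44926517) held no peak in WT and was gained in all 6 knockout libraries, at 55.1, 30.9 and 42.7 in B10 and 38, 33.4 and 17.5 in G7. Of the other intronic regions gained in both clones, that at 387 kb held peaks in all 6 knockout libraries, at 4.29 to 50, and that at 279 kb was weak, at 11.2 and 7.56 in B10 replicates 1 and 2 and 7.54 and 7.48 in G7 replicates 2 and 3. The region lost in both clones, 155 kb from the start site, had ranked 24.1 and 11.6 in WT replicates 2 and 3. The start region of Ebf1 did not pass the test, with ranks of 91.4 to 94.9 over the 9 libraries and differences of −0.77 and −0.33.

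Ebf2, a factor of brown and beige fat precursors, was the gene with falls in both clones. The region 76.8 kb upstream (chr14:67156096-67156979) ranked 64.2, 69.4 and 61.9 in WT, 34.5, 46.4 and 17.5 in B10 and 19.2, 41.9 and 19.4 in G7. WT lay above every knockout library. The clone minus WT difference was −32.34 ± 8.44 in B10 (adjusted p = 0.0302) and −38.37 ± 8.44 in G7 (adjusted p = 0.022). The calls were lost without WT replicate 2 (adjusted p = 0.0949 and 0.0742) or 3 (0.071 and 0.0588), without B10 replicate 1 or 3 in B10 (0.068 and 0.0922) and without G7 replicate 1 or 3 in G7 (0.0618 and 0.0836). The start region (chr14:67234091-67235074) ranked 93.8, 94.7 and 95.4 in WT, 87.9, 88.5 and 90.0 in B10 and 89.4, 90.2 and 90.9 in G7. It fell by −5.80 ± 0.84 in B10 (adjusted p = 0.00237) and −4.46 ± 0.84 in G7 (adjusted p = 0.0117), while after centring the differences were −3.50 (adjusted p = 0.189) and 0.51 (adjusted p = 0.905), and the G7 call was lost without WT replicate 3 (adjusted p = 0.0529). In the other direction, a region 197 kb downstream (chr14:67431620-67432446) rose by 47.66 ± 8.31 in B10 (adjusted p = 0.00677), with 19.02 ± 8.31 in G7 (adjusted p = 0.197; 0.0342 with the replicate block), and a weaker region beside it (chr14:67431091-67431369) was gained in both clones, at 24.1 and 10.1 in B10 replicates 2 and 3 and 18.4 and 16.8 in G7 replicates 2 and 3. A region 23.4 kb upstream was lost in both clones, from 42.7 and 4.56 in WT replicates 1 and 2. So was a region in the intron 15 kb from the start site, from 18.6, 20.8 and 15.8 in WT.

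Zfp423 encodes a zinc-finger factor that marks committed fat precursors. Its main start region (chr8:87958131-87959626) ranked 84.4, 81.2 and 82.6 in WT, 86.7, 85 and 86.1 in B10 and 87.2, 85.5 and 86.6 in G7, and neither difference passed the test (3.22, adjusted p = 0.116, and 3.70, adjusted p = 0.0997, with 0.0336 and 0.0233 under the replicate block). After centring, these differences were −2.11 and −1. Inside the gene B10 stood apart. Of the 24 Zfp423 regions, 21 were open in WT, 20 in G7 and 9 in B10, and B10 lost 11, of which 8 were intronic. G7 lost 2. Over all regions, 7.59% were lost in B10 and 7.43% in G7.

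The intronic region shown above (chr8:87938186-87939715) ranked 87.6, 88.5 and 88.9 in WT, 87.6, 86.7 and 83.4 in G7 and 25.1, 20 and 37.4 in B10. It fell by −60.90 ± 4.42 in B10 (adjusted p = 0.000125), with −2.46 ± 4.42 in G7 (adjusted p = 0.788). A second intronic region (chr8:87821531-87822470) ranked 83.0, 77.7 and 77.7 in WT, 80.7, 62.6 and 63.1 in G7 and 46.9, 27.2 and 25.1 in B10, a fall of −46.39 ± 6.85 in B10 (adjusted p = 0.00256), with −10.71 ± 6.85 in G7 (adjusted p = 0.377). Both B10 calls held under every alternative that gave a value. At the start site of the shorter transcript (chr8:87803474-87805176), ranks were 70.8, 73.6 and 70.0 in WT and 45.9, 27.9 and 45.6 in G7, and no B10 library held a peak. Not every region of the gene moved, since the intronic region of chr8:87927182-87928033 ranked 76.9, 91.5 and 87.5 in WT and 77.4, 87.4 and 85.7 in B10, a difference of −1.79 (adjusted p = 0.822). Upstream, a region at 5.28 kb was lost in both clones from WT ranks of 14.8, 1.98 and 8.25, and another at 8.25 kb from ranks of 6.89, 9.68 and 15.8.

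**Figure D4:**
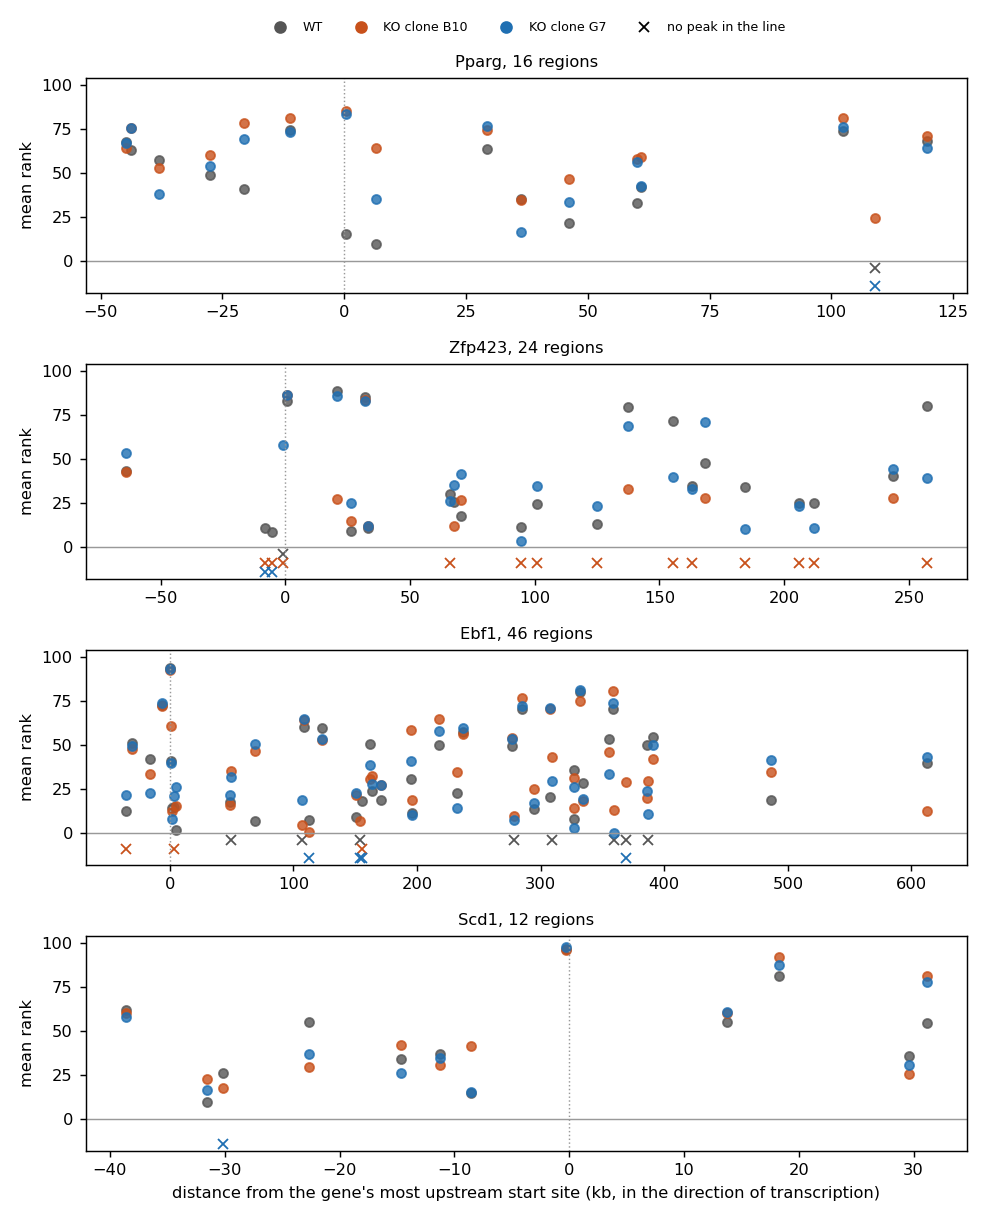
Mean rank per line (y axis, percentile of −log10 q, over the libraries with a peak) of every region nearest to Pparg, Zfp423, Ebf1 and Scd1 against its distance from the gene's start (x axis, kb), with crosses under 0 where no library of the line held a peak. WT is far below both clones at the Pparg start site, and B10 lacks or is below the other lines at most intronic Zfp423 regions.

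SREBF1 controls the genes of fatty acid synthesis. Its main start region (chr11:60219840-60221093) had differences of 0.81 and 2.16 in the clones, neither past the test. An intronic region 2.93 kb from a start site (chr11:60213095-60213699) held no peak in WT and was gained in all 6 knockout libraries, at 73.0, 43.2 and 28.7 in B10 and 36.7, 31.7 and 10.4 in G7. In both clones replicate 1 was the highest.

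Of the thermogenic genes, Ppargc1a and Dio2 held peaks at a start site. Ppargc1a encodes the coactivator of mitochondrial genes. Its main start region (chr5:51553546-51554339) lay 13.78 kb inside the gene. It ranked 82.8, 74.4 and 67.8 in WT, 74.6, 60.4 and 57.1 in B10 and 76.0, 46.4 and 45.8 in G7. The spread within each line was wide, and the differences of −11.00 ± 8.28 (adjusted p = 0.421) and −18.96 ± 8.28 (adjusted p = 0.19) did not pass the test, whereas with the replicate block the adjusted p was 0.058 in B10 and 0.0064 in G7. A second start region of Ppargc1a (chr5:51567590-51568871), at its most upstream start, was picked out after its values were seen. It ranked 60.6, 33.1 and 33.2 in WT, 79.4, 67.3 and 68.4 in B10 and 81.4, 50.1 and 62.2 in G7. Its differences were positive, 29.39 ± 9.24 in B10 (adjusted p = 0.06) and 22.24 ± 9.24 in G7 (adjusted p = 0.17). With the replicate block the adjusted p was 0.000626 and 0.00475, and after centring 0.0341 and 0.106. A region 6.14 kb upstream of this start site (chr5:51573516-51574210) ranked higher in both clones. It ranked 38.8, 38.1 and 40.7 in WT, 67.9, 65.8 and 70.6 in B10 and 63.1, 62.1 and 60.7 in G7, with tight libraries and no overlap. The rise was 28.92 ± 3.87 in B10 (adjusted p = 0.00164) and 22.76 ± 3.87 in G7 (adjusted p = 0.00743), and it held under every alternative.

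Of the 32 regions of Ppargc1a, 2 more were gained in both clones and 1 was lost in both, where 2.93% and 4.37% of all regions were. The gained region in a coding exon (chr5:51495269-51495803) ranked 53.6, 53.5 and 40.8 in B10 and 58.2, 58.7 and 56.7 in G7, with no peak in WT. The gained region 293 kb upstream ranked 55.9 and 42.3 in B10 replicates 1 and 2 and 37.6 and 1.24 in the same replicates of G7. The region lost in both clones, 446 kb downstream, had ranked 4.01, 26.8 and 30.7 in WT. The start region of Dio2, which encodes the enzyme that activates thyroid hormone, was weak wherever it was seen, at 8.47 to 13.4, in all 3 WT libraries and replicate 1 of each clone. Ucp1, the uncoupling protein of brown fat, had 2 regions, both open in every line, and neither was called against WT.

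Among the genes of lipid uptake and transport, Cd36 had the most regions. CD36 is a fatty acid receptor of the cell surface. Its main start region (chr5:17849689-17849917), at a start site 39.0 kb inside the gene, held peaks only in B10, at 70.2, 61.7 and 65.3. Of its 15 regions, B10 gained 4 and lost none, where 10.4% and 7.59% of all regions were gained and lost. G7 gained 1 and lost 3, where 5.61% and 7.43% of all regions were. An intronic region (chr5:17879903-17880391) ranked 26.3, 33.9 and 33.5 in WT and 51.8, 52.0 and 50.2 in B10, and no G7 library held a peak, which was singled out after its values were seen.

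Lpl encodes the lipase that frees fatty acids from lipoproteins. No library held a peak at its start site, and the region 2.10 kb into its intron (chr8:68882131-68883053) was gained in both clones at low rank, at 32.5 and 3.42 in replicates 1 and 2 of B10 and 16.6 and 11.4 in those of G7. Fabp4, the classical fatty acid binding protein of fat cells, had 2 regions, neither called. The start region of its relative Fabp5 (chr3:10012065-10013571) ranked 89.5 to 93.5 over the libraries, with differences of −1.80 and −1.89 that did not pass the test. Slc2a4, the insulin-responsive glucose transporter, had a start region with differences of 1.32 and 4.40 that did not pass it either.

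None of the 16 lipid synthesis regions was gained or lost. Of the 12 in the rank comparison, 2 ranked higher in both clones, where 3.25% of all regions did. Both lay downstream of Scd1, the desaturase that makes oleic acid. The region 31.0 kb downstream (chr19:44376400-44377050) ranked 61.0, 54.3 and 48.6 in WT, 82.0, 81.2 and 80.7 in B10 and 78.1, 80.1 and 75.2 in G7. The rise was 26.64 ± 3.45 in B10 (adjusted p = 0.00143) and 23.13 ± 3.45 in G7 (adjusted p = 0.00435). The region 18.1 kb downstream (chr19:44389039-44390231) ranked 80.4, 80.5 and 82.7 in WT, 92.0, 91.4 and 92.6 in B10 and 86.7, 86.9 and 88.6 in G7. Its rise was 10.81 ± 1.09 in B10 (adjusted p = 0.000458) and 6.25 ± 1.09 in G7 (adjusted p = 0.0084; 4.71 after centring, adjusted p = 0.172). The start regions of Scd1 and of Dgat2, which completes triglyceride synthesis, were strong and did not pass the test in either clone, with ranks of 95.4 to 97.9 and 83.8 to 93.4.

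Of the lipid droplet genes, Cidea, whose protein helps droplets grow in brown fat, rose in both clones. Its intronic region 2.17 kb from the start site ranked 31.9, 8.31 and 8.25 in WT, 71.7, 54.3 and 38.5 in B10 and 73.6, 49.2 and 50 in G7, and replicate 1 was the highest of each line. The rise was 38.69 ± 10.27 in B10 (adjusted p = 0.0322) and 41.48 ± 10.27 in G7 (adjusted p = 0.0349). The B10 call was lost without B10 replicate 1 or 2 or WT replicate 2 or 3 (adjusted p of 0.0836 to 0.109), and the G7 call without any G7 library, B10 replicate 2 or WT replicate 2 or 3 (0.056 to 0.113). The start region of Plin1, the perilipin that guards the droplet, ranked 56.8, 56.1 and 57.1 in WT, 71.4, 55.8 and 61.8 in B10 and 62.9, 65.5 and 62.3 in G7, with differences of 6.33 (adjusted p = 0.391) and 6.91 (adjusted p = 0.387). A region 2.24 kb upstream of Plin4, in the 3′ UTR of Plin5, was lost in both clones, from ranks of 46.2 and 41.5 in WT replicates 2 and 3.

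The lipolysis genes had open start sites. Pnpla2 encodes ATGL, which starts the breakdown of triglyceride. Its start region (chr7:141454816-141456171) ranked 86.6, 83.8 and 85.6 in WT, 84.5, 87.5 and 83.1 in B10 and 98.0, 95.7 and 96.4 in G7. G7 stood above both other lines, with 11.38 ± 1.29 against WT (adjusted p = 0.00121), and B10 differed from WT by −0.27 (adjusted p = 0.921). The start region of Lipe, the hormone-sensitive lipase, ranked 90.2 to 95.3 with differences of 0.24 and −0.15. A second start region of Lipe (chr7:25389852-25390620) ranked 84.3, 84.3 and 79.7 in WT, 89.5, 87.9 and 89.9 in B10 and 87.9, 81.8 and 83.9 in G7. It rose by 6.32 in B10 (adjusted p = 0.0441; 0.146 after centring), and the call was lost without any B10 library, G7 replicate 3 or WT replicate 2 or 3 (adjusted p of 0.0671 to 0.144). In G7 the difference was 1.79 (adjusted p = 0.605).

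No start site of the secreted factors held a peak, and most of their changes lay upstream of Lep, the gene of leptin. The region 28.2 kb upstream (chr6:29031126-29032855) ranked 68.9, 79.0 and 79.1 in WT, 26.9, 45.6 and 51.4 in B10 and 82.0, 84.5 and 83.0 in G7. B10 fell by −34.36 ± 5.93 (adjusted p = 0.0051), on a chromosome where its other regions had a median difference of 5.89, and G7 differed by 7.49 (adjusted p = 0.487). Of the other Lep regions, that at 21.8 kb upstream was gained in both clones, at 1.31 and 2.47 in B10 replicates 2 and 3 and 2.67, 36.8 and 38.5 in G7. That at 73.2 kb upstream was lost in both, from 20.3, 37.7 and 14.3 in WT. Near Adipoq, the gene of adiponectin, 1 of 4 regions was lost in B10 and 1 ranked lower in G7. Neither of the Cfd regions, near the gene of adipsin, was called. The only region of Adig lay in an intron of Ralgapb, 15.1 kb upstream of Adig, and was not in the main rank comparison. It held a peak in 1 WT library, at 3.14 in replicate 2, and in all 6 knockout libraries, at 52.4, 47.7 and 22.6 in B10 and 28.3, 36.1 and 19.4 in G7. With a missing peak set to rank 0, its difference was 39.86 in B10 (adjusted p = 0.0135) and 26.87 in G7 (adjusted p = 0.0934). It was picked out after its values were seen.

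Of the 36 differences past the threshold that are named above by the rule for named regions, 11 kept their call when peaks were ranked by fold enrichment, and the same 11 held under every alternative that gave a value. They were the Pparg start site in both clones and the region 20.5 kb upstream in B10, the Ppargc1a region 6.14 kb upstream and the Ebf1 intronic region in both clones, the Ebf2 region 197 kb downstream and the Scd1 region 31.0 kb downstream in B10, and both Zfp423 intronic regions in B10. Setting aside a normal-score version of the ranks, 14 alternatives gave a value at the Pparg start site. The number was 13 at the Ebf1 region, 12 at the Ebf2 region and 18 at the remaining regions of these 11 calls. The other 25 calls, those of Cebpa, Cebpb, Cebpd, Klf15, Klf5, Lep, Lipe, Pnpla2 and Cidea among them, were lost or changed sign by fold enrichment. Of these, 6 were lost by fold enrichment alone, namely those of the Klf15 start site, Lep at 28.2 kb, Cebpd at 97.5 kb and Scd1 at 18.1 kb in B10, and of Scd1 at 31.0 kb and the Pnpla2 start site in G7. A lost call did not always mean a smaller difference, since by fold enrichment that of Cidea was 37.81 in B10 and 44.21 in G7, and that of Pparg at 43.8 kb was 15.22 and 14.06. At the second Lipe start region it was 13.

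In all, 31 regions near 14 genes were called the same way in both clones, 10 gained, 9 lost, 10 higher and 2 lower in rank. Of all regions judged by each rule, 2.93%, 4.37%, 3.25% and 1.57% were called so. Of the 31, 16 were intergenic, 10 intronic, 2 in coding exons, 1 in a 3′ UTR and 2 at start sites. Over all 318 listed regions, 50.9% were intergenic, 35.2% intronic and 7.86% at a start site. The listed regions lay further from a start site than regions in general, with a median of 33.9 kb against 20.9 kb, and 44.7% were open in all 9 libraries against 48.8%. Their widths were alike, with medians of 644.5 and 665 bp.

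Motifs were searched as exact letters on both strands within 100 bases of the summit. The C/EBP pattern TTGCNNAA was found in 10.4% of the listed regions and 9.02% of all regions. The AP-1 pattern TGANTCA was found in 25.5% and 22.4%, and the EBF pattern CCCNNGGG in 6.29% and 7.51%. The pattern of PPARG with RXR, 2 copies of AGGNCA with 1 base between them, was found in 2 of the 318 listed regions, 0.629%, and in 0.29% of all. No pattern contains another. At least 50% of the bases around the summit were marked as repeat in 2.2% of the listed regions and 4.94% of all, and none of the windows of the Pparg regions at the start site and 20.5 kb upstream was so marked at any base. A match describes the letters and does not show a bound factor.

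A further 46 genes of the pathway gave 738 regions, of which both clones gained 29 and lost 13, or 3.93% and 1.76%, beside 2.93% and 4.37% of all regions. Of the 432 in the rank comparison, 14 were higher and 14 lower in both, beside 3.25% and 1.57% of all regions. Among 17 lipid enzymes, both clones gained 7 of 142 regions and lost 2, which is 4.93% and 1.41%. Of the 91 in the rank comparison, 7 were higher and 1 lower in both, where 3.25% and 1.57% of all regions were. Mgll, the monoglyceride lipase that completes fat breakdown, gained 3 regions, its start site among them, which held peaks in all 6 knockout libraries at 20.3 to 44.2 and in none of WT. The start site of Bscl2, the seipin gene, was lost in both clones from WT ranks of 57.8, 60.5 and 49.7. Among 13 inhibitors of fat cell formation, both clones gained 18 of 400 regions (4.5%) and lost 9 (2.25%), and 11 of the 18 had Sox9 as the nearest gene. Of the 229 inhibitor regions in the rank comparison, 3 were higher and 5 lower in both. Among 16 partners and co-regulators of PPARG, both clones gained 4 of 196 regions (2.04%) and lost 2 (1.02%), and of 112 in the rank comparison 4 were higher and 8 lower in both.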

How the data were processed

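Chromatin accessibility was measured by Omni-ATAC-seq in 9 libraries of C3H/10T1/2 cells. The authors checked reads with Rfastp, aligned them to mm10 with Rsubread and called peaks in each replicate with MACS2 in paired-end mode. The deposited lists give each peak's fold enrichment at the summit, −log10 p, −log10 q and an integer score, as MACS2 writes them. The fold enrichment is a ratio to MACS2's background. The peak names mention an input that the methods do not describe, so which control set that background is unclear. The score was not used. The authors compared read counts in a consensus peak set with DESeq2. The lists hold no read counts, so depth is unknown, and that test could not be run. The number of peaks limits the precision.

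The members and gene lists were chosen with earlier results of these data known. Regions were assigned to start sites of GENCODE M21 in Python 3.11.15 with pandas 2.3.3. The strongest peak of a region gave its rank. Ranks were fitted with limma 3.58.1 (R 4.3.3), all 3 lines in 1 model without covariates, over the regions with a peak in at least 2 libraries of every line. A missing peak was left out of the fit. Errors are standard errors, and an adjusted p under 0.05 was called. The exact permutation test of 3 against 3 libraries cannot go below 0.1. The fit was tested on simulated data. Deviations of same-numbered libraries from their group means correlated at 0.315 to 0.665 in all 9 pairs, against −0.5615 to 0.312 in the 18 pairs of different numbers. Replicates 2 and 3 of different lines also correlated, at 0.211 to 0.312. The main fit did not use the replicate number, which entered as a block in an alternative. Named regions were the start regions of Pparg, Cebpa, Cebpb, Cebpd, Fabp4, Lpl, Adipoq and Plin1, every region gained, lost, higher or lower in both clones, the 3 largest changes in each direction in a single clone, and every other start region gained, lost or past the threshold. The other start regions are accounted for by ranges. Alternatives were another rank, chromosome centring, a block, stricter peaks, distance limits and leaving out libraries.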

Additional observations from a re-analysis of the deposited data

Results flagged for a closer look

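In 6 of the named regions the clones differed from each other in the limma fit that held all 3 lines, each over 3 libraries per line. At Zfp423, B10 ranked below G7 by −58.43 in the intronic region 14.9 kb from the main start site (adjusted p = 0.000312) and by −35.68 in the intronic region 17.6 kb upstream of the shorter transcript's start site (adjusted p = 0.0169). At the region 28.2 kb upstream of Lep the difference was −41.85 (adjusted p = 0.00469), and at the Pnpla2 start site −11.65 (adjusted p = 0.00152). B10 ranked above G7 by 37.38 in the region 24.8 kb downstream of Cebpb (adjusted p = 0.00883) and by 4.56 in the region 18.1 kb downstream of Scd1 (adjusted p = 0.04). In each of these regions except that of Scd1, 1 of the clones alone passed the test against WT. Whether a clone's own history or the guide it received takes part in these differences cannot be told apart from the knockout, since each guide gave 1 clone.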

How the results depend on the processing

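Of the 36 named differences past the threshold, 11 passed under every alternative that gave a value. Over all alternatives, 544 values kept their call, 107 lost it and 4 changed sign. By fold enrichment, the B10 difference at 41.6 kb from Klf15 became −3.91 and that at the Klf5 start site 7.37. The G7 difference at the Ebf2 start site became 0.51 after chromosome centring, with or without the replicate block. That at the Klf5 start site, not past the threshold, became 4.05 (adjusted p = 0.000601) after centring with the block, an alternative chosen after seeing the data. The causes were not tested.

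Counts are given in the order B10, G7, both clones. They come without the shares of all regions, so they do not show whether the listed regions stood apart. Requiring a −log10 q of at least 5 left 17 regions gained in B10, 4 gained in both and 9 lost in G7. Requiring peaks to cover at least 0.5 of a region gave 14 lost in both. Within 50 kb of a start site, where fewer regions are counted, 13, 9 and 3 were gained, 18, 10 and 5 lost, and 1 ranked lower in both. Ranking by fold enrichment gave 9, 3 and 3 higher and 4, 1 and 0 lower. With a missing peak at rank 0, 36 and 18 were higher in B10 and G7 and 26, 14 and 9 lower. Normal scores gave 5 lower in both and medians of 0.01 and 0.02 in normal-score units, and centring gave 1 lower in both. The replicate block gave 37, 29 and 24 higher and 21, 21 and 9 lower, and ended no call of a named difference. The block with centring gave 29, 31 and 20 higher and 29, 13 and 7 lower. Without replicate 1 of every line, 31, 19 and 17 were higher, 16 lower in G7 and 6 lower in both. Without single libraries, gained regions numbered 16 to 56, 11 to 35 and 4 to 23. They were fewest without replicate 2 of B10 or G7 and most without WT replicate 1. Lost regions numbered 19 to 41, 10 to 29 and 5 to 14, fewest without WT replicate 2 or 3. By the rule of presence, leaving out a clone library could only lower gains or raise losses, and a WT library the reverse. Higher ranks numbered 9 to 27, 6 to 19 and 5 to 17, lowest without WT replicate 2 and highest without WT replicate 1, and lower ranks 6 to 13, 1 to 8 and 0 to 2. The medians ran from −0.27 to 1.99 in B10 and from −0.34 to 0.91 in G7.

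A peak list records no reads below the calling threshold, and a region without a peak is not shown to be closed.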
